A study of Mus musculus with 6 samples.

Results

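Cxcl12, Kitl, Lepr, Pdgfra, Pdgfrb, Ibsp, Spp1, Alpl, Adipoq and Lpl are genes by which the supporting cells of bone marrow and their bone and fat descendants are commonly recognised. They were taken by gene symbol, as 10 of 33924 genes listed in a table of read counts. The symbols were chosen with earlier results of these data known. All 10 passed the filter on low counts and were among the 15708 genes tested. The counts come from 6 RNA sequencing libraries of mouse bone marrow depleted of lineage-marked cells with antibody-coated magnetic beads, 3 labelled Stag2KO and 3 labelled Stag2WT. The study asked how loss of Stag2, a subunit of the cohesin ring that encircles DNA and organises it into loops, bears on blood stem cell self-renewal and differentiation. The labels used here give the genotype and the marrow fraction, and name no treatment, strain, age or Cre driver. Nothing in them ties a library to an animal, and the p-values therefore reflect the spread among these samples, which may be technical.

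Blood stem cells live beside perivascular stromal cells that express the leptin receptor and secrete the chemokine CXCL12 and the cytokine KIT ligand, which hold stem cells in the marrow and keep them alive. The same stromal cells can give rise to osteoblasts, which lay down and mineralise bone matrix, and to marrow adipocytes. Depletion of lineage-marked cells is designed to enrich blood progenitors and not stroma, and Spp1, Lpl and Pdgfrb are also known from cells other than stroma, such as macrophages for the first and second of them. In a bulk library, fewer cells of a type and less RNA per cell cannot be told apart.

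The promoter sequences are shown because members differ in the elements that precede their starts. Those printed are of Cxcl12, Ibsp and Spp1, which fell, and of Adipoq, which did not pass the test described below. Sequences are from the RefSeq promoter table on GRCm38.p6, which matched 8 of the 10 genes with 11 promoters; Lpl and Pdgfrb had no entry. Each run below is 150 bases, plus strand, 5′ to 3′, ending at the base before the annotated start. Capitals mark matches on either strand to any of 4 elements. The TATA box, which positions the start of transcription, was searched as TATAAA. The NF-Y box, bound by the general factor of that name, was searched as CCAAT. The RUNX core, bound by the factor family that includes the osteoblast factor RUNX2, was searched as TGTGGT. The EBF core, bound by the factor family that includes the stromal factor EBF3, was searched as CCCNNGGG.
Cxcl12 at chr6:117168385-117168534: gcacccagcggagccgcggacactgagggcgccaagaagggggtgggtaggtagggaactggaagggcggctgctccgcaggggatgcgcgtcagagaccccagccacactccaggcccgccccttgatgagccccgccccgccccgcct
Ibsp at chr5:104299137-104299286: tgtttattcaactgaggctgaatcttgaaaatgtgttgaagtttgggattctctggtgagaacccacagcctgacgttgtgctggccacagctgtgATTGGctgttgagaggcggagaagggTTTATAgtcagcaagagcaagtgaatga
Spp1, first promoter, at chr5:104434961-104435110: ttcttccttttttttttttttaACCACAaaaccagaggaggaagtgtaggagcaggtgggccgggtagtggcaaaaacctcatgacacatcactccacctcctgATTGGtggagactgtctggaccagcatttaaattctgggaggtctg
Adipoq at chr16:23146386-23146535: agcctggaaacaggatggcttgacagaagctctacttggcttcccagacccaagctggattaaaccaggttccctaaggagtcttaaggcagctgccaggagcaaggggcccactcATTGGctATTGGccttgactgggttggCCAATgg
The Ibsp run holds an inverted NF-Y box from 54 to 50 bases before the start and an inverted TATA box from 28 to 23 bases before it. Spp1, which lies near Ibsp in the gene cluster that encodes matrix proteins of bone and teeth, holds an inverted NF-Y box at 46 to 42 bases and a RUNX core on the minus strand at 128 to 123 bases. Adipoq holds 3 matches to the NF-Y box within 34 bases of the start. Cxcl12 holds none of the 4 in the bases shown. Over the 250 bases before the start, the TATA box was found in promoters of Alpl, Ibsp, Kitl and Spp1, which is 4 of the 11 promoters against 12.4% of 32851 promoters in the table. The Kitl match lay 25 to 20 bases before the start. Those of the first Spp1 and the second Alpl promoter lay farther off, at 211 to 206 and 192 to 187 bases. The counts take no account of position. The NF-Y box was found in 4 of the 11, those of Adipoq, Ibsp, Lepr and Spp1, against 33.8% in the table. The RUNX core was found in 1 of the 11 against 14.0%, and the EBF core in 0 of the 11 against 11.8%. The matches do not overlap one another in these promoters, and a match is a description of letters and not a site of binding.

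The labels were checked first with the targeted gene. The level of Stag2 was 179.6 ± 9.25 CPM in Stag2KO and 330.2 ± 7.18 CPM in Stag2WT (SD, n = 3 each). CPM are counts scaled to a library of fixed size, with library sizes adjusted by the TMM method. Its level in Stag2KO was 54.4% of Stag2WT (log2 fold change -0.88, adjusted p = 0.000278, edgeR's quasi-likelihood test). Stag1, the paralogous subunit, did not pass the test (log2 fold change 0.14, adjusted p = 0.14). Libraries held 29435651 to 37722325 gene reads, so 1 CPM stands for about 29.4 to 37.7 reads. The share of reads outside annotated genes was 11.1% to 12.8% in Stag2KO libraries and 8.81% to 10.1% in Stag2WT libraries, and the part of that difference in the results below was not tested.

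Among the 10 genes, 7 fell in Stag2KO, 1 rose and 2 did not pass the test at an adjusted p under 0.05. Cxcl12, Kitl, Lepr, Ibsp, Spp1, Alpl and Lpl fell, and the receptor gene Pdgfrb rose. Of all genes tested, 21.2% were called in either direction, 10.5% lower and 10.7% higher, and since the 10 genes were chosen with earlier results known, their count is a description beside these shares. For 7 of the 10 genes every Stag2KO library lay below every Stag2WT library, a pattern seen in 21.2% of all genes tested. For 1 gene every Stag2KO library lay above, as for 22.2% of all genes tested. The median log2 fold change over the 10 genes was -1.24 and over all genes tested 0.01. Summed over the 10 genes, the level was 100.5 to 129.8 CPM in Stag2KO libraries and 218.8 to 240.6 CPM in Stag2WT libraries.

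**Figure D1:**
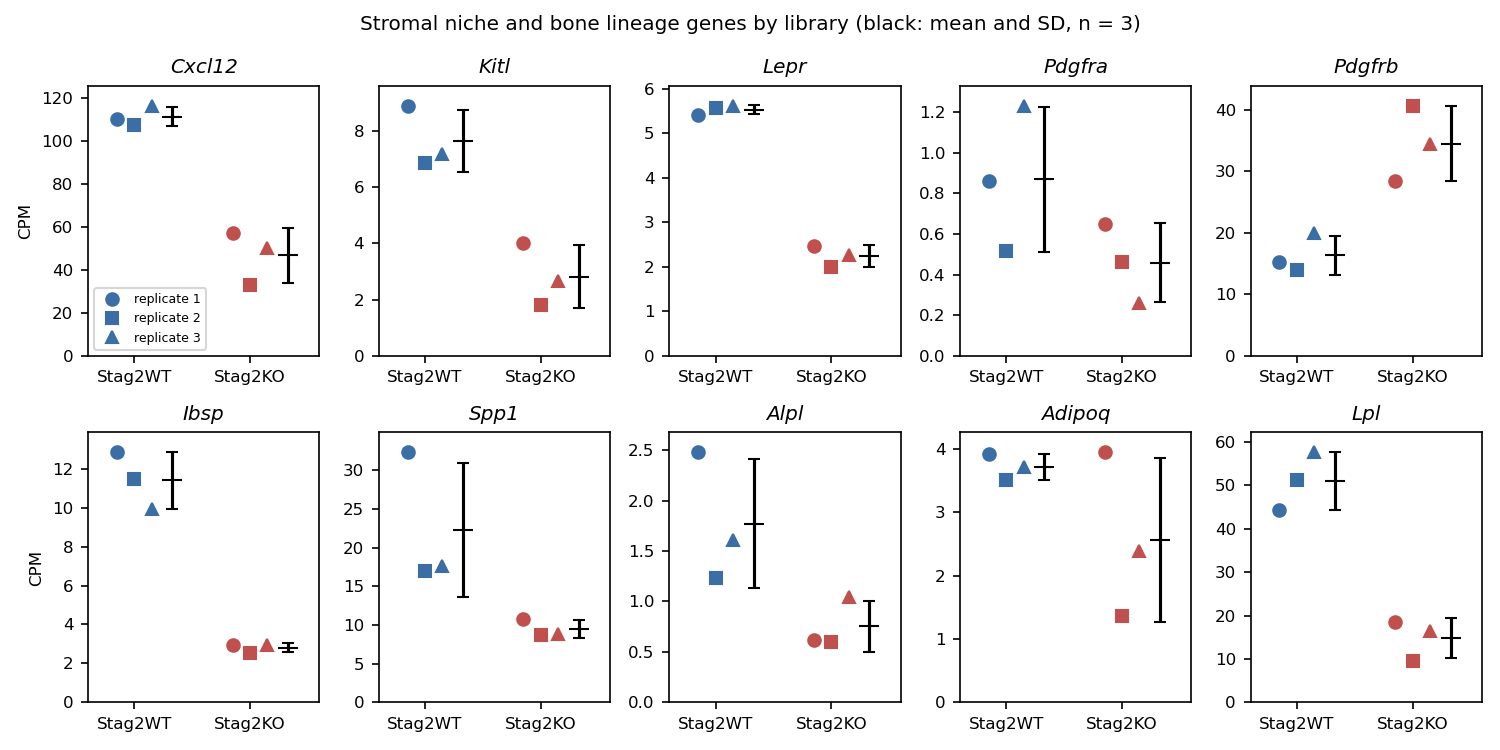
Level of each of the 10 genes in each library (CPM, 1 panel a gene, axes from 0), with 1 symbol a library and a black mark for the mean and SD of each group (n = 3). The 3 Stag2KO points lie below the 3 Stag2WT points for 7 genes and above them for Pdgfrb, and the groups overlap for Pdgfra and Adipoq.

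Cxcl12 encodes the chemokine that retains blood stem cells and B cell precursors in marrow through its receptor CXCR4. It stood at 57.3, 32.8 and 50.1 CPM in Stag2KO replicates 1, 2 and 3 and at 110.1, 108 and 116 CPM in Stag2WT replicates 1, 2 and 3. The Stag2WT libraries lay close together and the Stag2KO libraries were spread more widely, with replicate 2 the lowest. The Stag2KO mean of 46.7 ± 12.6 CPM was 41.9% of the Stag2WT mean of 111 ± 4.47 CPM (SD, n = 3 each), a log2 fold change of -1.25 with a standard error of 0.19 and an adjusted p of 0.00827 by edgeR. Cxcl12 carried 1205 to 1913 reads in a Stag2KO library, the deepest coverage of the 3 niche genes.

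Kitl encodes the ligand of the KIT receptor, on which stem and progenitor cells depend. Its levels were 4.01, 1.80 and 2.65 CPM in Stag2KO and 8.88, 6.85 and 7.17 CPM in Stag2WT. Again the groups did not overlap, and Stag2KO replicate 2 was the lowest library. The mean fell from 7.63 ± 1.09 to 2.82 ± 1.12 CPM (SD, n = 3 each), a log2 fold change of -1.45 (standard error 0.28, edgeR adjusted p = 0.0102).

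Lepr encodes the leptin receptor, the usual marker of perivascular stromal cells. Its levels were 2.47, 1.99 and 2.28 CPM in Stag2KO and 5.43, 5.57 and 5.62 CPM in Stag2WT. Both groups were tight, and the gap between them was many times the spread within either. The Stag2KO mean was 40.5% of the Stag2WT mean, at 2.24 ± 0.242 against 5.54 ± 0.1 CPM (SD, n = 3 each), with a log2 fold change of -1.30 (standard error 0.16, edgeR adjusted p = 0.00192). Each library held only 72 to 87 Lepr reads in Stag2KO and 192 to 195 in Stag2WT.

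The 2 receptors for platelet-derived growth factor did not share a direction. Pdgfra, the receptor gene used to sort mesenchymal progenitors, was close to the limit of measurement, with 19, 17 and 10 reads in Stag2KO and 31, 18 and 42 reads in Stag2WT. Those counts correspond to 0.459 ± 0.195 CPM in Stag2KO and 0.8685 ± 0.3575 CPM in Stag2WT (SD, n = 3 each), and the groups overlapped. The log2 fold change was -0.94 with a standard error of 0.42, and the difference did not pass the test (edgeR adjusted p = 0.145).

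Pdgfrb, a receptor gene used to mark pericytes and other mural cells, was the member that rose. Which cells the Pdgfrb reads came from was not tested. Pdgfrb stood at 28.4, 40.6 and 34.4 CPM in Stag2KO and at 15.2, 13.96 and 20.0 CPM in Stag2WT. Stag2KO replicate 2, which was the lowest of its group for every member that fell, was the highest for Pdgfrb. The mean was 34.5 ± 6.08 CPM in Stag2KO and 16.4 ± 3.16 CPM in Stag2WT (SD, n = 3 each), 2.11-fold higher with a standard error of 0.17 on the log2 scale and an edgeR adjusted p of 0.00555. In the RefSeq order of protein-coding genes Pdgfrb is followed by Csf1r, the macrophage growth factor receptor gene, which was singled out after its values were seen. Csf1r fell, from 195 ± 28.6 to 117 ± 16 CPM (SD, n = 3 each; log2 fold change -0.73, edgeR adjusted p = 0.00964).

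Ibsp encodes bone sialoprotein, a matrix protein of mineralising bone, and had the largest fold change of the 10 genes. Its levels were 2.95, 2.56 and 2.93 CPM in Stag2KO and 12.8, 11.45 and 9.92 CPM in Stag2WT. The lowest Stag2WT library was more than 3-fold above the highest Stag2KO library. The mean fell from 11.4 ± 1.45 to 2.81 ± 0.22 CPM (SD, n = 3 each), 4.05-fold, with a log2 fold change of -2.02 (standard error 0.15, edgeR adjusted p = 0.000372).

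Spp1 encodes osteopontin, a phosphorylated matrix protein that binds integrins and CD44 and that osteoblasts, osteoclasts and macrophages all make. It stood at 10.8, 8.69 and 8.88 CPM in Stag2KO and at 32.3, 16.9 and 17.6 CPM in Stag2WT. Stag2WT replicate 1 stood well above the other Stag2WT libraries, although the groups did not overlap. The mean fell from 22.3 ± 8.67 to 9.47 ± 1.19 CPM (SD, n = 3 each; log2 fold change -1.24, standard error 0.26, edgeR adjusted p = 0.0199). The call was lost without Stag2KO replicate 2 (edgeR adjusted p = 0.0736) and without Stag2KO replicate 3 (edgeR adjusted p = 0.0732), and without single libraries the log2 fold change ran from -1.40 to -0.87.

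Alpl encodes tissue-nonspecific alkaline phosphatase, which frees phosphate for mineral growth and marks early osteoblasts. Its reads were few, at 18, 22 and 40 in Stag2KO and 89, 43 and 55 in Stag2WT, which is 0.617, 0.599 and 1.05 CPM against 2.48, 1.23 and 1.61 CPM. The closest libraries of the 2 groups were 1.05 CPM in Stag2KO replicate 3 and 1.23 CPM in Stag2WT replicate 2. The log2 fold change was -1.22 (standard error 0.34, edgeR adjusted p = 0.0389). This was the least stable call of the 7 falls: it was lost with limma-voom (adjusted p = 0.0513) and in edgeR without Stag2KO replicate 1 (adjusted p = 0.101), Stag2KO replicate 2 (0.113), Stag2WT replicate 1 (0.106) or Stag2WT replicate 3 (0.0682).

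Lpl encodes lipoprotein lipase, which releases fatty acids from circulating triglyceride and is made by adipocytes, stromal cells and macrophages. It stood at 18.6, 9.61 and 16.3 CPM in Stag2KO and at 44.3, 51.2 and 57.6 CPM in Stag2WT. The highest Stag2KO library was far below the lowest Stag2WT library. The mean fell 3.44-fold, from 51.0 ± 6.65 to 14.9 ± 4.68 CPM (SD, n = 3 each; log2 fold change -1.78, standard error 0.25, edgeR adjusted p = 0.00561).

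Adipoq encodes adiponectin, a hormone of adipocytes that marrow stromal cells with adipocyte features also express. Its levels were 3.94, 1.36 and 2.38 CPM in Stag2KO and 3.92, 3.51 and 3.72 CPM in Stag2WT. Stag2KO replicate 1 matched the Stag2WT libraries while replicates 2 and 3 lay below all of them. The log2 fold change was -0.55 with a standard error of 0.34 and did not pass the test (edgeR adjusted p = 0.275). Without single libraries it ran from -0.99 to -0.24, and none of those fits called it.

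**Figure D2:**
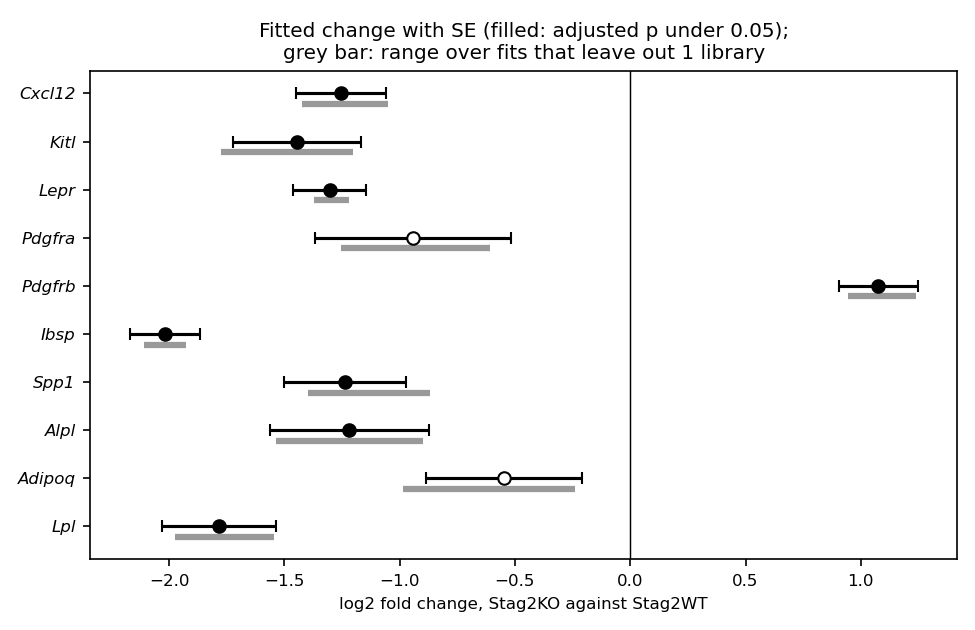
Log2 fold change of each of the 10 genes, Stag2KO against Stag2WT, with black bars of 1 standard error from the edgeR fit, filled points for an adjusted p under 0.05 and grey bars for the range over fits that leave out 1 library. Pdgfrb stands at 2.11-fold higher on the positive side, Ibsp is farthest below 0 at -2.02, and Pdgfra and Adipoq, the 2 genes that did not pass the test, are nearer to 0 than the 7 that fell.

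The Stag2KO libraries kept nearly the same order from gene to gene. Over the 9 genes with a lower mean in Stag2KO, replicate 1 was the highest of its group for 8 and replicate 2 the lowest for 8. Stag2KO replicate 2 also had the largest share of reads outside annotated genes of the 6 libraries, and the part of that share in the order was not tested. The Stag2WT libraries kept less of an order, with replicate 2 the lowest for 6 of the 9 genes and replicate 1 the highest for 5.

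Levels of different genes were compared per kilobase of exon, with exon lengths from the GENCODE M21 annotation of GRCm38, whereas the reads were aligned to mm9. The sources used here name no kit for these libraries, and a kit that reads mainly the 3′ ends would not scale with length. In Stag2WT the order was Cxcl12 at 15.5 CPM per kilobase, Spp1 at 13.5, Lpl at 12.4, Ibsp at 5.51, Pdgfrb at 2.99, Adipoq at 2.88, Kitl at 1.35, Lepr at 0.835, Alpl at 0.702 and Pdgfra at 0.0991 CPM per kilobase. Neighbours whose libraries overlapped in that order were Cxcl12 and Spp1, Spp1 and Lpl, Pdgfrb and Adipoq, and Lepr and Alpl. In Stag2KO Cxcl12 stayed first at 6.53 CPM per kilobase, overlapping Pdgfrb at 6.30, which overlapped Spp1 at 5.74. Pdgfrb thus moved from the fifth to the second place in the order, while Ibsp moved from the fourth to the sixth at 1.36 CPM per kilobase. Lpl at 3.61 overlapped Adipoq at 1.98, Adipoq overlapped Ibsp, Kitl overlapped Lepr and Lepr overlapped Alpl, so the places of these genes in Stag2KO are not separated by their libraries. Pdgfra stayed last in both groups.

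Ratios of paired genes within a library do not depend on library scaling. They were tested by permuting the 6 libraries exactly and two-sided. With 3 libraries a group such an exact p cannot go below 0.1, so none of the 6 pairs could pass at 0.05. Among the niche genes, the log2 ratio of Lepr to Cxcl12 was -4.34 ± 0.26 in Stag2KO and -4.33 ± 0.05 in Stag2WT (SD, n = 3 each; difference -0.01, exact p = 1), and that of Kitl to Cxcl12 differed by -0.21 (exact p = 0.3, adjusted over the 6 pairs 0.36), with overlapping libraries in both cases.

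The remaining 4 pairs did not overlap between groups, and each reached an exact p of 0.1, or 0.15 adjusted over the 6 pairs. The share of all gene pairs that lie apart in this way was not counted, so the number of pairs is a description. Of single genes tested, 21.2% had every Stag2KO library below every Stag2WT library and 22.2% had every one above. Pdgfrb reads per Pdgfra read were 42.6, 85.2 and 125 in Stag2KO and 17.4, 26.5 and 16.1 in Stag2WT, so the ratio was higher in Stag2KO by 1.98 on the log2 scale. It rests on only 10 to 42 Pdgfra reads a library. Ibsp reads per Spp1 read were 0.273, 0.296 and 0.331 in Stag2KO and 0.398, 0.676 and 0.564 in Stag2WT, a log2 difference of -0.83. Alpl reads per Ibsp read were 0.214, 0.238 and 0.36 against 0.194, 0.108 and 0.163, a log2 difference of 0.81, with the closest libraries nearly touching. Lpl reads per Adipoq read were 4.71, 7.0 and 6.83 against 11.2, 14.5 and 15.4, a log2 difference of -1.16.

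**Figure D3:**
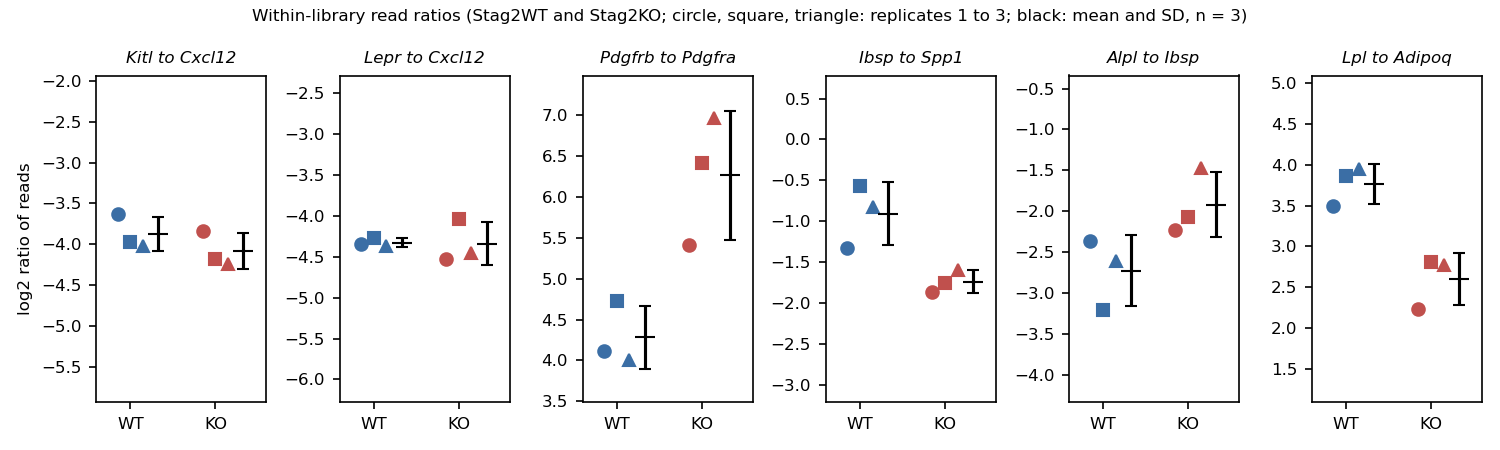
Log2 ratio of the reads of 2 genes within each library, for 6 pairs, with 1 symbol a library and a black mark for the mean and SD of each group (n = 3). The groups overlap for Kitl to Cxcl12 and Lepr to Cxcl12, and lie apart for Pdgfrb to Pdgfra, Ibsp to Spp1, Alpl to Ibsp and Lpl to Adipoq.

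Other genes of the same pathways and cell types were read from the same fit. The lists, too, were chosen with earlier results known, so their counts and medians are a description. Of 15 other niche factors 10 were tested, of which 4 fell, 2 rose and 4 did not pass; their median log2 fold change was -0.31 against 0.01 over all genes tested. The growth factor gene Igf1 fell from 30.5 ± 4.42 to 9.69 ± 1.99 CPM and the adhesion molecule gene Vcam1 from 282 ± 20.5 to 109.9 ± 20.9 CPM (SD, n = 3 each; edgeR adjusted p = 0.00114 and 0.00154). Csf1, the macrophage colony-stimulating factor gene, fell by 0.53 on the log2 scale (edgeR adjusted p = 0.0131). Angpt1, the ligand gene of the TIE2 receptor, rose from 59.4 ± 5.25 to 80.8 ± 7.98 CPM (SD, n = 3 each; edgeR adjusted p = 0.0141). Il6, at 6.41 against 6.87 CPM, did not pass the test. The count of rises was 1 without Stag2KO replicate 1 or 3 or Stag2WT replicate 1 or 2.

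Of 10 transcription factor genes of niche cells 6 were tested; 4 fell and 2 did not pass, with a median log2 fold change of -1.51. In this list, the mesenchymal list and the bone list, 0 genes rose with edgeR, DESeq2 or limma-voom in the fits to all 6 libraries, and 0 were higher there at an unadjusted p under 0.05. Ebf3, which perivascular stromal cells need to keep the marrow cavity open, fell from 2.95 ± 0.431 to 0.843 ± 0.191 CPM (SD, n = 3 each; log2 fold change -1.81, edgeR adjusted p = 0.00243). Ebf1 fell by 2.14 on the log2 scale (edgeR adjusted p = 0.000875), but is also a B cell factor and is counted again among the B cell markers. Nr2f2 fell at 0.182 against 0.587 CPM (edgeR adjusted p = 0.0322), while Foxc1, required for the CXCL12-rich stromal cells, stood at 0.482 against 0.697 CPM and did not pass. Nr2f2 had only 3 to 9 reads in a Stag2KO library and 16 to 27 in a Stag2WT library. Its call was lost with DESeq2 and in edgeR without Stag2KO replicate 2 or 3 or any 1 of the Stag2WT replicates. The number of falls was 2 of 6 with DESeq2 and without Stag2KO replicate 2 or any 1 of the Stag2WT replicates. With a minimum of 1 CPM in at least 3 libraries, 2 of these genes were tested and both fell.

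Of 16 mesenchymal and mural surface genes 12 were tested; 7 fell and 5 did not pass, with a median of -0.78. Eng, the endoglin gene, fell from 73.6 ± 1.42 to 50.3 ± 3.25 CPM (SD, n = 3 each; edgeR adjusted p = 0.00197). Its level was far above those of the other genes of the list that fell, and which cells its reads came from was not tested. The ecto-enzyme gene Nt5e and the BMP antagonist gene Grem1 fell by 1.63 and 1.52 on the log2 scale (edgeR adjusted p = 0.00346 and 0.0039). Itgav, an integrin chain gene, stood at 34.1 against 29.7 CPM and did not pass. Other mural genes of the list did not rise with Pdgfrb. Mcam fell by 1.72 on the log2 scale (edgeR adjusted p = 0.018). Its call was lost without Stag2KO replicate 2 or Stag2WT replicate 3. Rgs5, Acta2 and Tagln did not pass, at 0.57, 0.595 and 2.67 CPM in Stag2KO against 0.722, 0.946 and 3.03 CPM in Stag2WT. Cspg4 and Des had too few reads to be tested. The number of falls dropped to 3 without Stag2KO replicate 2 or Stag2WT replicate 3, while with the minimum of 1 CPM it was 4 of 7 tested.

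Of 20 further osteoblast and bone matrix genes 16 were tested; 6 fell and 10 did not pass, with a median of -0.86. The collagen chain genes Col1a1 and Col1a2 stood at 8.72 ± 3.99 and 12.97 ± 5.2 CPM in Stag2KO against 19.1 ± 0.808 and 29.7 ± 0.76 CPM in Stag2WT (SD, n = 3 each; edgeR adjusted p = 0.0463 and 0.0308). Sparc, the osteonectin gene, fell by 1.04 on the log2 scale (edgeR adjusted p = 0.0437). The growth factor receptor gene Fgfr1 and the osteoblast factor gene Sp7 fell by 1.24 and 1.06 (edgeR adjusted p = 0.0245 and 0.0292). The Sp7 call was lost with DESeq2 and whichever library was left out. That of Fgfr1 was lost without Stag2KO replicate 1 or Stag2WT replicate 1 or 3. Those of Col1a1, Col1a2 and Sparc were lost without Stag2KO replicate 3 or any 1 of the Stag2WT replicates. Runx2, the master factor gene of osteoblasts, stood at 149 ± 29.6 against 138 ± 14.7 CPM (SD, n = 3 each) and did not pass. Sp7 and Bglap stood at only 0.475 and 0.303 CPM in Stag2KO and 0.988 and 0.505 CPM in Stag2WT. Which cells the Runx2 reads came from was not tested. Dmp1, a neighbour of Ibsp, had 9, 3 and 4 reads against 19, 36 and 9 and did not pass (edgeR adjusted p = 0.0667), and Mepe, between Ibsp and Spp1, had at most 3 reads in a library and was not tested. The number of falls rests on single libraries: it was 0 without Stag2WT replicate 1 (8 at an unadjusted p under 0.05 in edgeR), 1 without Stag2KO replicate 3 or Stag2WT replicate 2, 2 without Stag2WT replicate 3, and 3 when every gene with at least 1 read was tested.

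Of 16 adipocyte genes 11 were tested; 3 fell, 1 rose and 7 did not pass, and their median of 0.02 was close to that of all genes tested. The other 5, Plin1, Plin4, Lep, Cidec and Retn, had too few reads to be tested, and Lep had 0 in every library. Pparg, the master factor gene of adipocytes, fell from 17.1 ± 3.87 to 7.54 ± 1.73 CPM, Apoe from 338 ± 48.9 to 131 ± 21.5 CPM and Cebpb from 13.5 ± 2.89 to 5.65 ± 1.46 CPM (SD, n = 3 each; edgeR adjusted p = 0.00989, 0.00192 and 0.00954). All 3 are also expressed by macrophages. Pnpla2, a triglyceride lipase gene, rose by 0.44 on the log2 scale (edgeR adjusted p = 0.00615). Cebpa stood at 132 against 131 CPM and did not pass, and which cells its reads came from was not tested.

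Of the genes that encode receptors, ligands and cofactors of the 10 genes' products 22 were tested; 8 fell, 1 rose and 13 did not pass, with a median of -0.25. The receptor genes carried by blood progenitors did not pass the test: Cxcr4 stood at 298 ± 34.1 against 336 ± 39.2 CPM and Kit at 244 ± 19.5 against 236 ± 15.8 CPM (SD, n = 3 each; edgeR adjusted p = 0.29 and 0.68). Among the ligands of the platelet-derived growth factor receptors, Pdgfc and Pdgfd fell by 1.99 and 1.67 on the log2 scale (edgeR adjusted p = 0.00775 and 0.00525) and Pdgfb by 0.69 (edgeR adjusted p = 0.0338). The calls of Pdgfc and Pdgfd held whichever library was left out, while that of Pdgfb was lost without any 1 of the Stag2KO replicates and without Stag2WT replicate 1 or 3 (edgeR adjusted p up to 0.0943). Among the integrin chains that osteopontin and bone sialoprotein can bind, Itga9 fell from 8.95 ± 1.95 to 1.62 ± 0.2 CPM and Itgb5 from 29.3 ± 3.51 to 13.1 ± 1.42 CPM, while Itgb3 rose from 65.1 ± 11.4 to 103 ± 2.97 CPM (SD, n = 3 each; edgeR adjusted p = 0.00057, 0.00113 and 0.0070). Enpp1, which makes the pyrophosphate that alkaline phosphatase removes, fell by 1.03 on the log2 scale (edgeR adjusted p = 0.00192).

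Among markers of other cell types, most of those of macrophages and all of those of B cells fell. Of 16 macrophage markers tested 12 fell and 4 did not pass, with a median of -1.78 and a summed level of 473 to 647 CPM in Stag2KO libraries against 1414 to 1552 CPM in Stag2WT libraries. The haptoglobin-haemoglobin receptor gene Cd163 fell from 74.2 ± 11.2 to 13.7 ± 1.21 CPM, and Mrc1, which encodes the mannose receptor, from 117 ± 12.97 to 11.3 ± 3.5 CPM (SD, n = 3 each; edgeR adjusted p = 7.25e-05 and 0.00111). Gpnmb, a lysosomal glycoprotein gene singled out after its values were seen, lay the other way, at 24.8, 23.8 and 42.1 CPM in Stag2KO and 21.5, 2.399 and 1.11 CPM in Stag2WT. Stag2WT replicate 1 was close to the Stag2KO libraries and far above its own group. The Gpnmb difference did not pass with all 6 libraries (edgeR adjusted p = 0.313) and was called higher with limma-voom and without Stag2WT replicate 1. All 7 B cell markers fell, from a summed 160 to 248 CPM to 67.3 to 75.6 CPM, with a median of -2.14. None of the macrophage or B cell markers in the table was at 0 in all libraries. Spp1, Lpl and Apoe are expressed by macrophages as well as by stroma, and the part of macrophage RNA in the falls of these genes was not tested. Nor was it tested for the falls of Igf1, Vcam1, Pparg and Cebpb.

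The other marker lists had medians between -0.32 and 0.26. Of 6 osteoclast markers tested 2 fell and 4 did not pass, with a median of -0.32, and the summed levels overlapped at 193 to 306 CPM in Stag2KO against 204 to 308 CPM in Stag2WT. Acp5, the tartrate-resistant phosphatase gene, fell by 1.30 on the log2 scale (edgeR adjusted p = 0.00807); the count of falls was 1 without Stag2KO replicate 2 or Stag2WT replicate 1 or 3. Atp6v0d2, a proton pump subunit gene singled out after its values were seen, stood at 54.2, 36.8 and 54.7 CPM in Stag2KO and at 34.7, 4.03 and 2.02 CPM in Stag2WT, again with Stag2WT replicate 1 far above its group. It did not pass with all 6 libraries (edgeR adjusted p = 0.306) and was called higher with limma-voom and without Stag2WT replicate 1. Over the 9 genes with a lower mean in Stag2KO, Stag2WT replicate 1 was the highest of its group for 5. These were Kitl, Ibsp, Spp1, Adipoq and Alpl, and the part of macrophage or osteoclast markers in those values was not tested. Of 10 endothelial markers 4 rose, 1 fell and 5 did not pass, with a median of -0.22 and summed levels of 176 to 194 against 162 to 190 CPM. Stab2, a scavenger receptor gene of sinusoids, fell from 22.4 ± 0.923 to 8.53 ± 1.62 CPM (SD, n = 3 each; edgeR adjusted p = 0.00111). The count of endothelial rises was 2 without Stag2KO replicate 1 and 0 without Stag2KO replicate 2 or 3 or Stag2WT replicate 1 or 2, where 4 passed at an unadjusted p under 0.05 in edgeR.

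Markers of blood cells that the depletion leaves or removes were read in the same way. Of 11 neutrophil markers the granule enzyme genes Mpo and Elane rose, by 0.58 and 0.41 on the log2 scale, and 9 did not pass, with a median of 0.09 and summed levels of 15082 to 20534 against 13331 to 15331 CPM. Of 7 megakaryocyte markers 2 rose, among them the integrin chain gene Itga2b, and 5 did not pass, with a median of 0.26 and summed levels of 360 to 469 against 306 to 385 CPM. Of 7 stem and progenitor markers Cd34, Hlf and Mycn rose, by 0.49 to 0.53 on the log2 scale, and 4 did not pass, with a median of 0.20 and summed levels of 524 to 634 against 461 to 575 CPM. The stem and progenitor count was 0 or 1 whichever library was left out, the megakaryocyte count was 1 without Stag2KO replicate 2 or any 1 of the Stag2WT replicates, and the neutrophil count was 0 without Stag2KO replicate 3 and 1 without Stag2KO replicate 1 or any 1 of the Stag2WT replicates. None of these markers was at 0 in all libraries, and the part of these lists in the results was not tested.

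**Figure D4:**
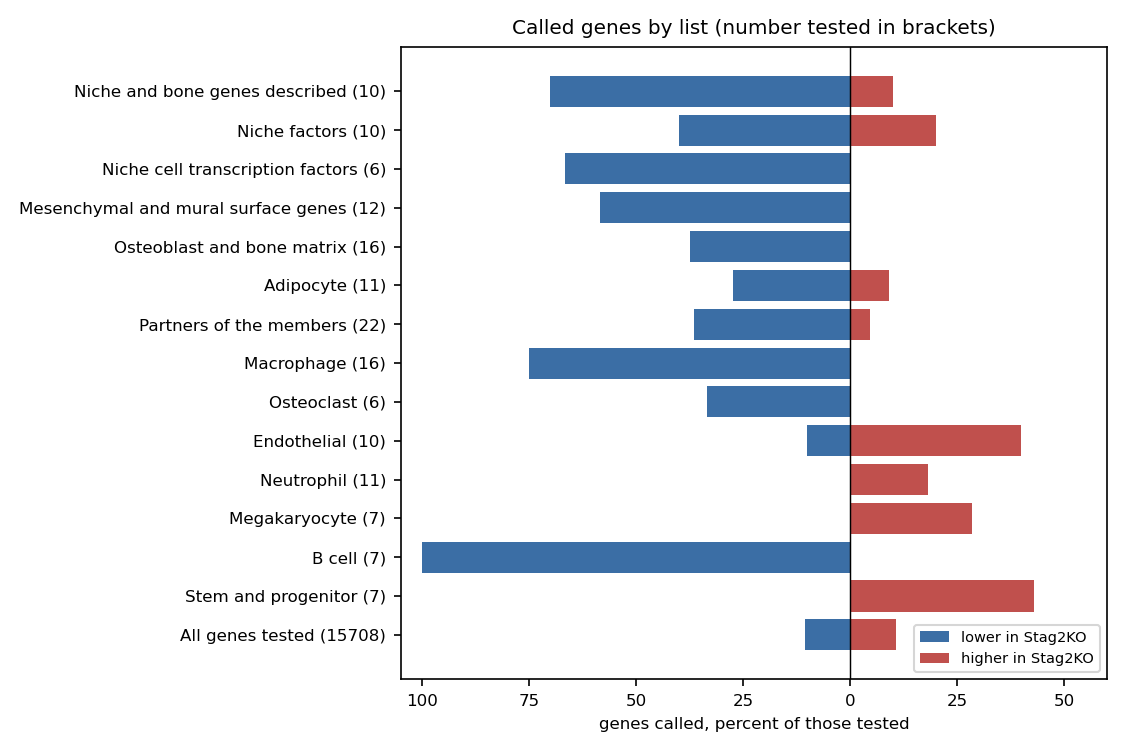
Percent of tested genes called lower (left) and higher (right) in Stag2KO, for the 10 genes, the 13 lists and all genes tested, with the number tested in brackets. Of all genes tested 10.5% were lower and 10.7% higher. Of the 10 genes 7 were lower, as were 12 of 16 macrophage markers and all 7 B cell markers. The 10 genes and the lists were chosen with earlier results known, so their shares are a description.

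For each gene, the tested genes with the most similar log2 CPM profile over the 6 libraries were found among the 13265 genes that averaged 1 CPM or more; with 2 groups that differ, high correlations come easily, and they are given as a description. Nearest to Cxcl12 were Btnl6 (r = 0.999) and Atp6v0c (r = 0.9986), and 202 genes had r over 0.95. Nearest to Lepr were Atp4a (r = 0.9996) and Axl (r = 0.9975), nearest to Kitl were Cdc42ep2 and Ddr2 (r = 0.9966 for both), and nearest to Pdgfrb were Ralgapa1 (r = 0.9957) and Plekhg5 (r = 0.995). Nearest to Ibsp were Tnfrsf13c (r = 0.999) and Gna12 (r = 0.9984), with 397 genes over 0.95, and nearest to Spp1 were Clic5 (r = 0.9945) and Fsd2 (r = 0.9849), with 71. Nearest to Alpl were Gm15931 (r = 0.9971) and St8sia6 (r = 0.9967), and nearest to Lpl were Dlc1 (r = 0.9981) and Zfp238 (r = 0.9973). Adipoq, nearest to Nr2f6 (r = 0.9852) and Stk40 (r = 0.9802), and Pdgfra, nearest to Slfn14-ps (r = 0.9859) and Tesc (r = 0.9599), had only 24 and 2 genes over 0.95.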

How the data were processed

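The authors deposited raw counts, whole numbers of reads per gene symbol with 1 column per library and no normalization. The submitters' processing notes name the tools STAR 2.4, HTSeq 0.6.1 and DESeq2 and the build mm9. They name no kit, annotation or setting for strand, so overlapping and antisense reads cannot be told apart. Rows that name no gene, among them reads in no annotated gene (8.81% to 12.8% of a library), entered neither library sizes nor tests. Groups came from the genotype label; replicates were numbered in accession order.

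The test was edgeR 4.0.16 in R 4.3.3 (TMM, filterByExpr, robust quasi-likelihood fit, genotype only) and Benjamini-Hochberg adjustment over 15708 genes, called under 0.05. Ratios had 0.5 reads added to each gene. Alternatives were DESeq2 size factors, testing all genes with at least 1 read, a minimum of 1 CPM in 3 or more libraries, limma-voom (limma 3.58.1), DESeq2 1.42.0, no robust dispersion, and each library left out.

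The 10 genes and the lists were chosen with earlier results of these data known. Named were all 10 genes, of each list the called genes with the 3 smallest p and the uncalled gene with the highest mean, and the 2 genes most like each member by Pearson r of log2 CPM (prior count 2). Other list genes and Csf1r beside Pdgfrb were picked after their values were seen. The label for Adgre1 in the table is Emr1. Some genes that this rule names are not reported here.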

Additional observations from a re-analysis of the deposited data

How the results depend on the processing

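Over 12 alternatives, no member changed direction. The calls of Cxcl12, Kitl, Lepr, Ibsp, Lpl and Pdgfrb held in all of them, and Pdgfra and Adipoq were called in none; Pdgfra was not tested under the minimum of 1 CPM. Spp1 and Alpl lost their calls as given above, so 6 to 8 of the 10 genes were called when single libraries were left out, 5 to 7 of them lower and 1 higher. All genes called numbered 1967 to 2548 when single libraries were left out, against 3333 with all 6; these fits have fewer libraries. Of 823 fits of 69 named genes, 717 kept their side of the threshold and direction, 86 lost a call, 8 gained one and 12 changed sign. The sign changes were in genes not called and near 0, whose log2 fold changes without single libraries ran from -0.029 to 0.079 for Cebpa, -0.21 to 0.046 for Il6, -0.014 to 0.10 for Kit, -0.16 to 0.39 for Mmp9, -0.043 to 0.24 for Runx2 and -0.25 to 0.10 for S100a9; the cause was not tested. The 6 within-library ratios kept their direction with 1 read added. Without single libraries the Lepr to Cxcl12 difference ran from -0.16 to 0.08, while the differences of the other pairs kept their direction. Reads were fewest for Pdgfra and Alpl, with 10 to 42 and 18 to 89 reads a library.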
